A study of Mus musculus with 7 samples.

Results

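Chitinases and type 2 immunity effectors were read in whole lungs of male mice lacking claudin-18 and of wild-type mice, on Illumina MouseRef-8 v2 bead arrays. The set held 7 genes, taken by name, of 16593 genes with a named probe: Chia1, Chil1, Chil3, Chil4, Chit1, Retnla and Arg1, which older annotations list in part as Chia, Chi3l1, Chi3l3 and Chi3l4. All 10 of their probes in the signal table were used. The genes were chosen with the knockout and wild-type difference already known, so their differences between genotypes are described here and not tested.

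The knockout group had 3 arrays and the wild-type group 4, all on 1 slide; the protocol mentions 4 replicates of each genotype, and a further knockout array was not analysed here. Knockout mice carried a claudin-18 allele whose exons 2 and 3 were removed in all tissues, by crossing a floxed line (Cldn18F/F) to CMV-cre deleter mice. Both groups were 3 to 4 months old, of mixed strain background (129S6/SvEvTac, C57BL/6J, Balb/c), and received no treatment. The labels do not say whether wild-type mice carried the floxed allele or Cre, whether they were littermates, or whether each array was a separate animal, so p-values measure the spread between these arrays only.

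Mammalian chitinases bind or cut chitin, a polymer of fungal walls and mite shells. Chia1 (acidic mammalian chitinase) and Chit1 (chitotriosidase) are enzymes, whereas Chil1 (BRP-39), Chil3 (Ym1) and Chil4 (Ym2) share their fold but lack the catalytic activity. Interleukin-4 and interleukin-13 signal through Stat6, and in mouse lung that pathway is known to raise Chia1 and Chil4 in epithelium and Chil3, Retnla and Arg1 in alternatively activated macrophages. Retnla encodes the secreted protein RELM-alpha, and Arg1 encodes arginase, which breaks arginine down to ornithine and urea. In healthy mouse lung Chil3 is an abundant transcript of alveolar macrophages.

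Chia1, Chil3 and Chil4 stand next to each other on chromosome 3 in the RefSeq annotation. The windows around the starts of these 3 genes and of Retnla are shown for their sequence, those of Chil3 and Chil4 being near copies. Chil3 was detected on every array and Chil4 on none, but by different probes, which does not compare their levels. Each window runs from 250 bases before to 50 bases after the annotated gene start, 5′ to 3′ on the gene's strand, from RefSeq on GRCm38.p6. Capitals mark matches to TATAAA, TTCNNNNGAA (the Stat6 spacing) or TTCNNNGAA (the spacing of other STAT proteins), searched on both strands. The Chia1 window is chr3:106113132-106113431 (plus strand), the Chil3 window chr3:106167515-106167814 (minus), the Chil4 window chr3:106219430-106219729 (minus) and the Retnla window chr16:48842359-48842658 (plus).
Chia1: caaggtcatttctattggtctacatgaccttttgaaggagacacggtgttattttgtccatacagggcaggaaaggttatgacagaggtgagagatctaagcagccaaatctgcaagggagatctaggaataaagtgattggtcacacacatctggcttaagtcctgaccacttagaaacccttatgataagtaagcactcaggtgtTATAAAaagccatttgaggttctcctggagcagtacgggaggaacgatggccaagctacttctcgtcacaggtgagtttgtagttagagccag
Chil3: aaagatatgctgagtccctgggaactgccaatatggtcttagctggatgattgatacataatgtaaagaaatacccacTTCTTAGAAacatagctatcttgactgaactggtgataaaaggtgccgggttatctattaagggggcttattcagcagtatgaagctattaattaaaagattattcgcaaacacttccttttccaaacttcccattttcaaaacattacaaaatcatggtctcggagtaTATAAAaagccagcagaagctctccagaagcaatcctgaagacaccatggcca
Chil4: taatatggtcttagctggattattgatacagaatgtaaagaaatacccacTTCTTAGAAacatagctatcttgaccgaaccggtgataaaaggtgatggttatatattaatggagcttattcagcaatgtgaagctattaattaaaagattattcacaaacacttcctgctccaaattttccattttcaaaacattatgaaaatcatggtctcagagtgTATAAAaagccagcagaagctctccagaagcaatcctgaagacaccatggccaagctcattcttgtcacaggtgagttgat
Retnla: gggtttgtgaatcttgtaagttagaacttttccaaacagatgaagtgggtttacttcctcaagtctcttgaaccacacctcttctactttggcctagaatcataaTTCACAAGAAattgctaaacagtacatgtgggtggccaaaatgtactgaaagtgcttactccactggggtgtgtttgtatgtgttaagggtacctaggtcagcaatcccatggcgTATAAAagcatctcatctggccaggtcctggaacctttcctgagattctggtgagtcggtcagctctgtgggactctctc

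Aligned to each other, the Chil3 and Chil4 windows were identical at 251 of 272 columns (92.3%), with 19 mismatches and 2 gap columns. The Chia1 and Chil4 windows matched at 169 of 253 aligned columns (66.8%). TATAAA was present in all 4 windows, on the gene's strand, and in 13.6% of 32851 promoter windows of the same length. Its first base was 43 bases before the annotated start in Chia1, 3 in Chil3, 31 in Chil4 and 30 in Retnla. On the gene's strand, 20 to 40 bases before the start, it was in 2 of 6 member windows and in 1.99% of all windows. TTCNNNGAA was present in the Chil3 and Chil4 windows, 172 and 200 bases before their annotated starts, and in 8.3% of all windows. Both motifs thus lay nearer the annotated start in Chil3 than in Chil4. TTCNNNNGAA was present in the Retnla window, 145 bases before the start, and in 6.95% of all windows. No match overlapped another. Windows were found for 6 of the 7 genes; those of Chil1 and Chit1 held none of the motifs. A match describes letters in a window and is not evidence of binding.

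The arrays differed in brightness. The median deposited signal was 259 to 349 on knockout arrays and 355 to 468 on wild-type arrays, and 10291 to 11715 probes were detected on knockout arrays against 11211 to 12376 on wild-type arrays (detection p under 0.01). The levels below are therefore log2 values after background correction and quantile normalization, and a difference is knockout minus wild type with its standard error (SE). Cldn18 itself had a signal of 935 to 1875 on knockout arrays and 14718 to 27990 on wild-type arrays, a difference of -3.71 (SE 0.19). The lung markers Sftpc (surfactant protein C) and Scgb1a1 (club cell secretory protein) were detected on all 7 arrays. A probe was tested where it was detected on at least 3 arrays: 7 of the 10 probes, for Chia1, Chil1, Chil3 and Retnla, were tested, and the probes for Chil4, Chit1 and Arg1 were not. Levels of different probes are not set against each other.

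Chia1, the acidic chitinase, was higher in knockout lungs on every array. Its probe ILMN_2955940 had deposited signals of 54716, 30062 and 21344 in knockout lungs and 7009, 8396, 14532 and 10263 in wild-type lungs. After normalization the levels were 15.48, 15.33 and 14.93 in knockout lungs and 12.33, 13.08, 13.47 and 13.07 in wild-type lungs. Knockout exceeded wild type on both scales without overlap, and the dimmest knockout array was above the brightest wild-type array. The means were 15.25 ± 0.29 (SD, n = 3) in knockout and 12.99 ± 0.48 (SD, n = 4) in wild type, a difference of 2.26 (SE 0.27), or 4.79-fold. The other probe, ILMN_2955937, gave 14.86 ± 0.33 (SD, n = 3) in knockout and 12.50 ± 0.44 (SD, n = 4) in wild type, a difference of 2.36 (SE 0.26), or 5.14-fold. Both probes thus read nearly the same size of difference. The highest Chia1 signal was 74.1% of the brightest signal on any array.

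Chil3, the chitinase-like protein Ym1, was also higher in knockout lungs after normalization, on 3 probes that disagreed on the size. Probe ILMN_3117876 had levels of 13.85, 13.83 and 13.92 in knockout lungs and 12.65, 12.53, 13.27 and 13.46 in wild-type lungs, a difference of 0.89 (SE 0.24), or 1.85-fold. Probe ILMN_3043036 had levels of 11.82, 11.77 and 11.57 in knockout lungs and 10.17, 9.65, 10.75 and 9.97 in wild-type lungs, a difference of 1.58 (SE 0.25), or 3.00-fold. Probe ILMN_2712986 had levels of 13.88, 13.82 and 13.66 in knockout lungs and 12.80, 12.79, 13.59 and 12.89 in wild-type lungs, a difference of 0.77 (SE 0.22), or 1.71-fold. On all 3 probes every knockout array exceeded every wild-type array, and the knockout arrays were close together, within 1.06- to 1.18-fold of each other, while the wild-type arrays spread over 1.75- to 2.15-fold. Wild type 4 was the highest wild-type array on ILMN_3117876, while wild type 3 was the highest on the other 2 probes. Chil3 has near copies in the genome, and whether its probes also bind Chil4 transcripts is unknown here.

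The Chil3 difference was smaller before normalization. On ILMN_2712986 the deposited signals were 18281, 9784 and 8516 in knockout lungs and 9352, 6864, 15554 and 9085 in wild-type lungs, so the groups overlapped. The log2 difference of deposited signals was 0.24 on that probe, 0.36 on ILMN_3117876 and 0.75 on ILMN_3043036, and the groups overlapped on all 3 probes. Over all tested probes, the median difference of deposited signals was -0.52, and after quantile normalization it was 0.02.

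Chil4, the close relative Ym2, was not detected on any array. Its only probe, ILMN_1222707, had deposited signals of 264, 184 and 285 in knockout lungs and 325, 275, 271 and 342 in wild-type lungs, with detection p-values of 0.337 to 0.892 in knockout and 0.596 to 0.806 in wild type. Signals at that height do not rank arrays, and no fold is given. Detection on no array sets no upper limit on Chil4 RNA, since the array's probes differ in sensitivity.

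**Figure D1:**
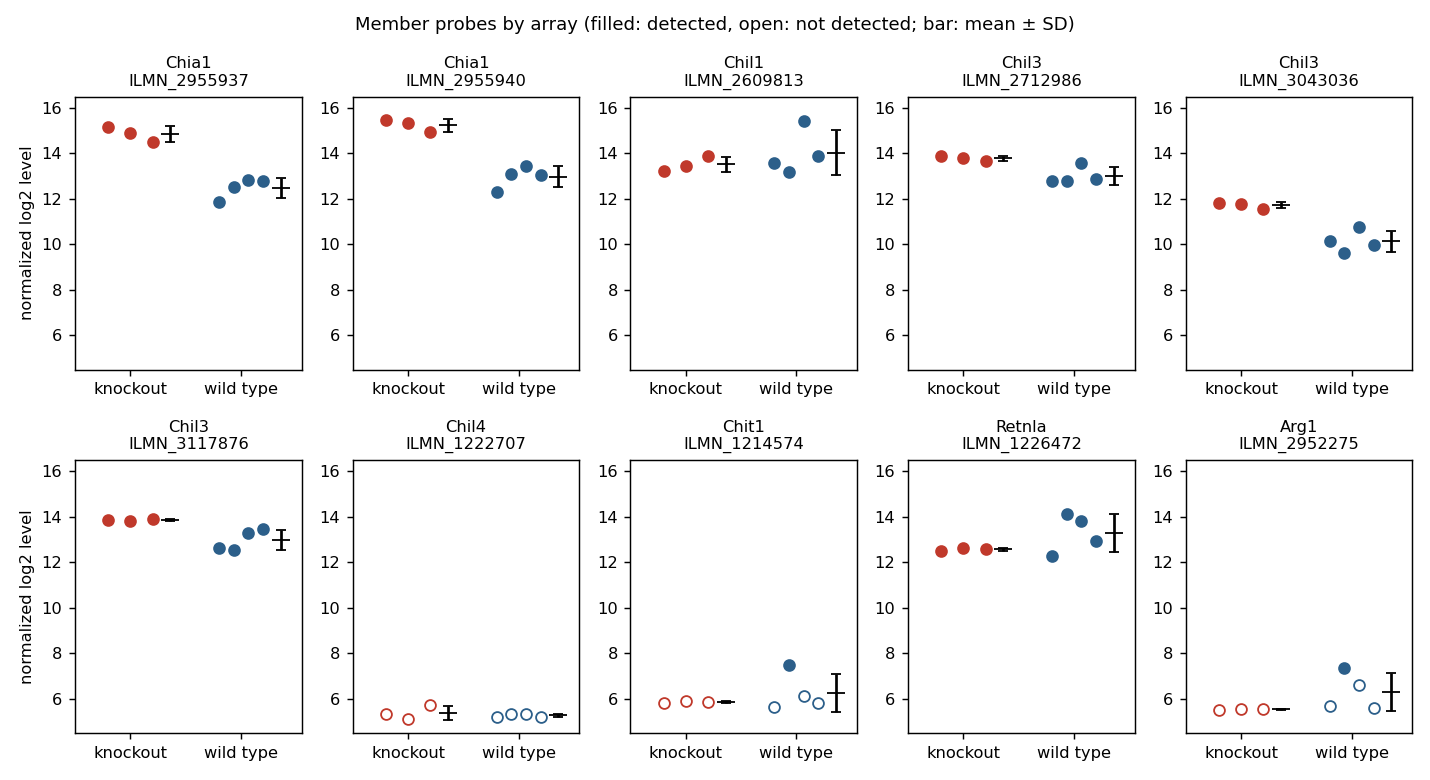
Normalized log2 level (vertical axis) of each of the 10 probes on the 3 knockout arrays (red, left) and the 4 wild-type arrays (blue, right); filled points were detected, open points were not, and the bar is the mean ± SD. Knockout lies above wild type without overlap for both Chia1 probes and all 3 Chil3 probes, and the groups overlap for Chil1 and Retnla. Chil4 sits at background on all 7 arrays, and Chit1 and Arg1 were detected on wild type 2 alone.

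Chil1, the chitinase-like protein BRP-39, was detected on all 7 arrays, and the groups overlapped. Its levels were 13.22, 13.45 and 13.90 in knockout lungs and 13.57, 13.19, 15.44 and 13.88 in wild-type lungs. Wild type 3 stood far above the rest, with a deposited signal of 51245 against 9044 to 17665 on the other wild-type arrays and 7413 to 11352 on the knockout arrays. The difference was -0.50 (SE 0.46), and without wild type 3 it was -0.03.

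Chit1, the second active chitinase, was detected on wild type 2 alone. ILMN_1214574 had levels of 5.82, 5.92 and 5.85 in knockout lungs and 5.65, 7.50, 6.12 and 5.81 in wild-type lungs, where 7.50 belongs to wild type 2. Apart from that array, its values were not above background in either genotype.

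Retnla, the RELM-alpha gene, was detected on all arrays, and the groups overlapped. The deposited signals were 7082, 4230 and 3914 in knockout lungs and 6746, 16483, 17960.5 and 9354 in wild-type lungs. The levels were 12.51, 12.63 and 12.59 in knockout lungs and 12.26, 14.11, 13.81 and 12.93 in wild-type lungs. The knockout arrays agreed closely, whereas wild type 2 and wild type 3 were high and wild type 1 was the lowest of all 7 arrays. The difference was -0.70 (SE 0.38), which became -1.04 without wild type 1 and -0.43 without wild type 2.

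Arg1, the arginase of alternatively activated macrophages, was likewise detected on wild type 2 alone. ILMN_2952275 had levels of 5.52, 5.53 and 5.57 in knockout lungs and 5.69, 7.34, 6.60 and 5.57 in wild-type lungs. The detection p-value was 0.0117 on wild type 3, just outside the threshold of 0.01, and 0.263 to 0.41 on wild type 1 and wild type 4. The knockout values were not above background, so they have no order against the wild-type values and no fold is given.

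In the limma fit over all 11902 tested probes, 4 of the 7 tested member probes passed an adjusted p of 0.05, all higher in knockout: both Chia1 probes and the Chil3 probes ILMN_3043036 and ILMN_3117876. Of all tested probes, 3.97% passed as higher and 4.91% as lower. On 5 of the 7 probes each knockout array exceeded all wild-type arrays, as they did for 13.3% of all tested probes. These genes were chosen on the same contrast, so nothing is read from the shares. The count itself depends on the arrays and the setting: ILMN_3117876 did not pass without any single knockout array, or without wild type 1, 2 or 3, and ILMN_2712986 passed without wild type 3.

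**Figure D2:**
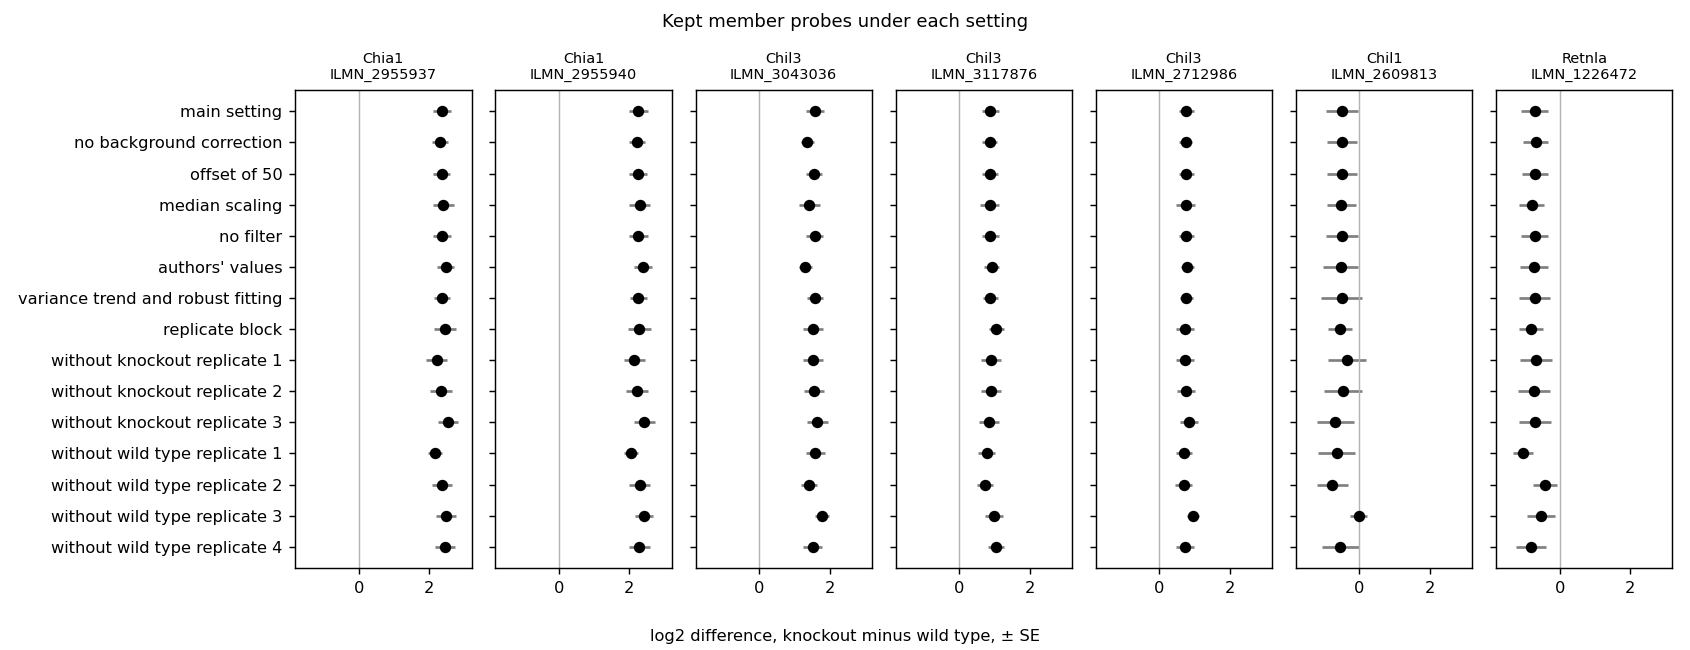
Log2 difference, knockout minus wild type, with its SE (horizontal axis) for the 7 tested member probes, with the main setting and 14 alternatives down the page; no test is shown, since the genes were chosen on this difference. The Chia1 differences stay between 2.04 and 2.54, the Chil3 differences between 0.69 and 1.79, and Chil1 comes to -0.03 without wild type 3.

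The genes around Chia1 and Chil3 on chromosome 3 are described next; since Chia1 and Chil3 were chosen on this contrast, they are not compared with them. In RefSeq order, Chil5 and Pifo precede Chia1, and Chil3, Chil4, Chil6 and Dennd2d follow it. Of the 10 genes other than members within 5 places of Chia1, Chil3 or Chil4, 6 were tested and 0 passed by limma; at an unadjusted p under 0.05, 1 did. Of all 8537 genes tested, 11.7% were higher and 13.9% lower at an unadjusted p under 0.05, and counts at that threshold below are to be read against these shares. The mitochondrial ATP synthase subunit Atp5pb had the largest difference, 0.53 (SE 0.17, adjusted p = 0.0796), its 3 knockout arrays all above its wild-type arrays, and Pifo, the nearest tested gene, gave 0.09 (SE 0.21, adjusted p = 0.819). Chil6, a further chitinase-like gene, was detected on no array, and the probes of Ovgp1, the oviduct relative of the chitinases, were detected on 2 arrays at most.

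**Figure D3:**
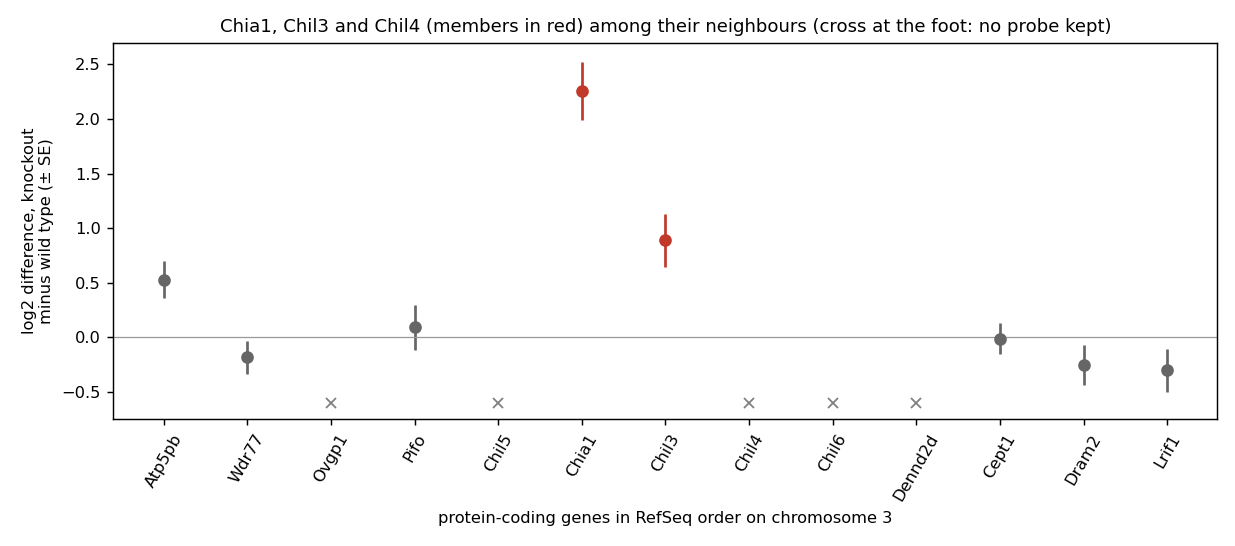
Log2 difference, knockout minus wild type, with its SE (vertical axis) for protein-coding genes in RefSeq order around Chia1, Chil3 and Chil4 (members in red, others in grey; a cross at the foot means no probe was tested). The 6 tested neighbours lie between -0.30 and 0.53, and the members, chosen on this difference, at 2.26 (Chia1) and 0.89 (Chil3).

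The genes with the most similar profiles are given as a description. Likeness was measured as the root mean square difference between log2 profiles over the 7 arrays, each centred on its own mean, among 8410 other named genes. It includes the genotype difference on which the members were chosen, so genes with a like difference rank near. The genes most like Chia1 were Psca (0.26), a surface antigen also made in stomach, Clec4n (0.27), the fungal receptor dectin-2, and Pla2g1b (0.28), a secreted phospholipase, whose own differences were 2.22, 1.88 and 1.80; a flat profile would lie 1.17 from Chia1. The nearest to Chil3 were Serpinb6b (0.117), Vdr, the vitamin D receptor (0.12), and Prr15l (0.123), where a flat profile would lie 0.53 away. For Retnla they were Ccl21c (0.25), Tmem218 (0.26) and Gchfr (0.28) against 0.65 for a flat profile, and for Chil1 no gene was close: Dcp1b (0.40), Aste1 (0.41, detected on 0 knockout arrays) and Rgl1 (0.44) came first, against 0.72. Among the members, Chia1 and Chil3 were 0.76 apart and Chia1 and Retnla 1.52.

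The wider type 2 pathway was then compared, as 100 genes in 8 lists without the 7 members. Of these, 89 had a named probe, 45 were tested, and 40 were detected on no array. By limma with 1 probe per gene, 5 of the 45 rose and 5 fell, against 3.68% higher and 5.11% lower among all 8537 genes tested. Their median difference was 0.00, against 0.01 over all genes. In bulk tissue, a change can reflect fewer cells of a type or less RNA per cell, which these arrays cannot tell apart. The 5 that rose became 3 without knockout 1, knockout 2 or wild type 2 and with median scaling. The 5 that fell became 2 without knockout 2 or with the authors' values, and 3 without knockout 3 or wild type 3 or with no background correction.

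Among the cytokines that start a type 2 response, Il33, an alarmin stored in lung epithelial nuclei, rose. Its levels were 12.05, 12.09 and 11.49 in knockout lungs and 11.05, 10.74, 11.26 and 10.85 in wild-type lungs, without overlap. The difference was 0.90 (SE 0.21, limma adjusted p = 0.0267), or 1.87-fold, and it passed under 8 of 14 alternatives (adjusted p 0.00598 to 0.122). The call was lost without knockout 1, knockout 2, wild type 2 or wild type 4, and with median scaling. Il4, Il5 and Il13, the cytokines of type 2 lymphocytes, and the alarmins Il25 and Tslp were detected on no array.

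Among receptors and signal carriers, 1 of 13 tested genes fell and 0 rose, and the median difference was -0.17. Wild type 1 stood above the other arrays on this list, with a summed level of 12310 against 7036 to 7560. At an unadjusted p under 0.05 by limma, 1 of the 13 genes was higher (Csf2rb) and 2 were lower (Gata3 and Stat6). The shares over all genes were 11.7% and 13.9%. Without wild type 4, Csf2rb passed as higher. Il13ra1, the shared receptor chain for both cytokines, gave -0.17 (SE 0.29, adjusted p = 0.754), and Stat6, their transcription factor, gave -0.62 (SE 0.25, adjusted p = 0.154). Gata3, the transcription factor of type 2 lymphocytes, fell by 1.09 (SE 0.26, adjusted p = 0.0325) and was read above background on 1 of 3 knockout and 4 of 4 wild-type arrays. The Gata3 call held under 5 of 14 alternatives, which gave -1.36 to -0.28, and was lost without knockout 2, knockout 3, wild type 1, wild type 3 or wild type 4. The decoy receptor Il13ra2 was detected on no array, and Il4ra and Il1rl1 had no named probe.

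Of the epithelial genes that interleukin-13 is known to raise, 17 had a probe, 5 were tested, 1 rose and 1 fell. Slc26a4, the anion exchanger pendrin, had levels of 11.25, 11.39 and 10.67 in knockout lungs and 9.03, 8.24, 8.82 and 8.09 in wild-type lungs, a difference of 2.56 (SE 0.27, adjusted p = 0.00125). It passed under all 14 alternatives, which gave 1.70 to 2.78, as did no other gene of that list. Pigr, which carries antibodies across epithelium, was above background on 4 wild-type arrays only and was at least 1.18-fold lower (adjusted p = 0.0191); its call was lost without knockout 2 or knockout 3. The eosinophil attractant Ccl11 gave 0.53 (SE 0.20, adjusted p = 0.13) and the mucous cell factor Foxa3 gave 0.68 (SE 0.22, adjusted p = 0.0857), which passed without wild type 1. The goblet cell genes Clca1, Muc5ac, Spdef and Agr2, the lipoxygenase Alox15 and the chemokine Ccl24 were detected on no array, and Tff2 on 2.

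Chemokines of type 2 responses were led by Ccl17, a ligand of Ccr4 made by dendritic cells. Its levels were 9.86, 10.42 and 10.22 in knockout lungs and 6.54, 7.35, 7.77 and 6.80 in wild-type lungs, where 2 of the 4 wild-type arrays detected it. The difference was 3.05 (SE 0.29, adjusted p = 0.000881), which passed under all 14 alternatives. Its size depended on the processing, with 1.41 from the authors' values, 1.75 with no background correction and at most 3.27, and 2 wild-type arrays were not above background. Ccl22, the other Ccr4 ligand, and Ccr4 itself were detected on no array.

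Of the other genes of alternatively activated macrophages, 13 were tested, 0 rose and 3 fell. At an unadjusted p under 0.05 by limma, 1 of them was higher (Fcgr2b, an inhibitory antibody receptor) and 4 were lower, against 11.7% and 13.9% of all genes. Mrc1, the mannose receptor, gave 0.30 (SE 0.23, adjusted p = 0.441) and the lectin Mgl2 gave 0.11 (SE 0.25, adjusted p = 0.816). The 3 that fell were Egr2 (-2.35, SE 0.26, adjusted p = 0.00142), a growth factor-induced transcription factor, Flt1 (-1.37, SE 0.18, adjusted p = 0.00349), a VEGF receptor also of endothelium, and Cd163, the haemoglobin scavenger receptor. On its other probe, ILMN_2732721, Flt1 gave -0.78 (adjusted p = 0.246). Cd163 was detected on 0 knockout arrays and was at least 1.28-fold lower in the main setting (adjusted p = 0.0258). The alternatives gave log2 differences of -1.04 to -0.18 for Cd163. Its call held under 6 of 14 alternatives. It was lost without knockout 1, knockout 2, wild type 2 or wild type 3, with no background correction, with the authors' values, with a variance trend and with the replicate number as a block. Klf4, a transcription factor of alternative activation, did not pass on its brightest probe (adjusted p = 0.11) but passed as lower on ILMN_1241903 (-1.05, adjusted p = 0.0456) and ILMN_1221264 (-1.13, adjusted p = 0.0309). Clec10a was detected on 1 array and not tested.

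Arginine handling, the pathway of Arg1, had 9 genes tested, of which 2 rose and 0 fell; at an unadjusted p under 0.05 by limma, 2 were higher and 1 was lower (Nos3), against 11.7% and 13.9% of all genes. Nos3, the endothelial nitric oxide synthase, did not pass on its brightest probe (-0.71) but passed on ILMN_2729153 (-0.77, adjusted p = 0.0324). Azin2, an antizyme inhibitor, was above background on the 3 knockout arrays only and was at least 2.25-fold higher in the main setting (adjusted p = 0.00032). It passed under all 14 alternatives, which gave log2 differences of 0.48 to 2.22. Asl, which makes arginine from argininosuccinate, rose by 0.73 (SE 0.18, adjusted p = 0.0373), but passed under only 2 of 14 alternatives, an offset of 50 and without wild type 1, and the alternatives gave 0.22 to 0.79. Arg2, the mitochondrial arginase, gave 0.48 (SE 0.36, adjusted p = 0.447), the arginine carrier Slc7a2 gave 0.44 (SE 0.22, adjusted p = 0.251), and Odc1, which turns ornithine into putrescine, gave 0.17 (SE 0.18, adjusted p = 0.585). Nos2, which competes for arginine, was detected on no array. In the resistin family, Retnlg, the gene next to Retnla and abundant in neutrophils, gave -0.23 (SE 0.66, adjusted p = 0.856), and Retnlb and Retn were detected on no array. Of the other chitinase relatives, Ctbs was detected on no array, Chid1 and Chil5 had no named probe, and none was tested.

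**Figure D4:**
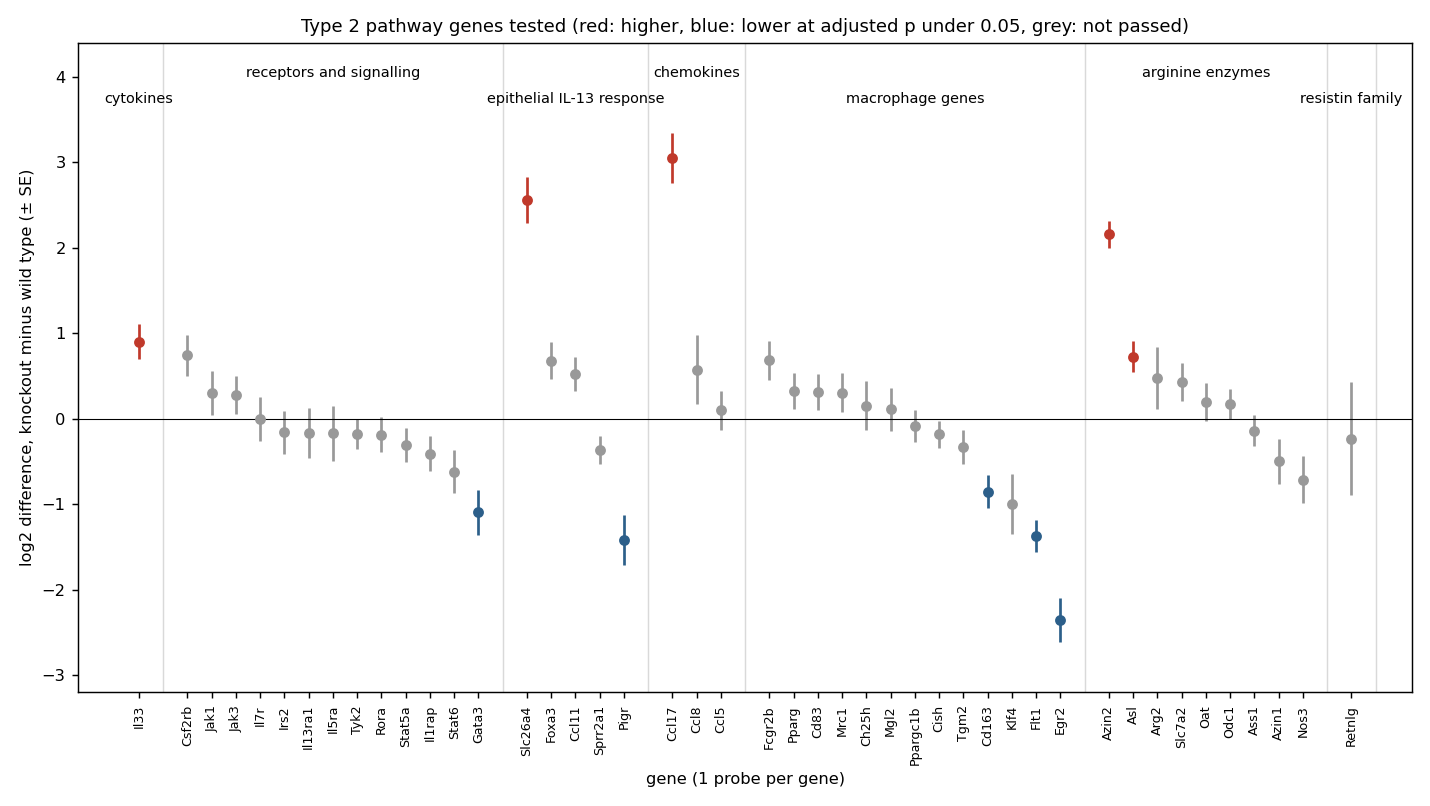
Log2 difference, knockout minus wild type, with its SE (vertical axis) for the 45 tested genes of the type 2 lists, 1 probe per gene, grouped by role; red rose, blue fell and grey did not pass a limma adjusted p of 0.05. Ccl17 at 3.05 and Slc26a4 at 2.56 are the highest and Egr2 at -2.35 the lowest.

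Markers of cell types, some of which can make these proteins, are described next. Of all 8537 genes tested, 3.68% passed as higher and 5.11% as lower, 8.79% in all, and the counts below are to be read against these shares. Neutrophil markers (8.33%) and club and airway markers (10%) passed about as often as all genes. Alveolar macrophage markers without Chil3 had 3 of 8 tested genes higher (Ctsk, Krt79 and Krt19) and 1 lower (Fabp5). Their summed linear level was 39189 to 46153 in knockout lungs against 30530 to 38247 in wild-type lungs. That sum is weighted to the brightest gene, Cd9. The mean centred level, which weighs all 8 alike, overlapped, with -0.10 on knockout 3 and 0.15 on wild type 3. The defining markers of these macrophages, Siglecf, Itgax, Fabp4, Plet1 and Atp6v0d2, were detected on no array, and Marco on 2. The 3 higher markers became 0 without knockout 2 or with the replicate number as a block, and 1 without knockout 1 or wild type 4. The Fabp5 call was lost without wild type 2 or with the replicate block. The brightest, Cd9, gave 0.60 (adjusted p = 0.0651). Their part in the Chil3 difference was not tested.

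Alveolar type 2 cell markers had 2 of 13 higher, Napsa (0.96, adjusted p = 0.00615) and Sftpa1 (0.76, adjusted p = 0.0246), and 0 lower, with a summed level of 367718 to 399907 in knockout lungs against 290738 to 311438 in wild-type lungs. That sum is weighted to the brightest genes. The mean centred level, which weighs all 13 alike, was 0.01 to 0.38 on knockout arrays and -0.28 to -0.07 on wild-type arrays. The 2 calls became 1 without knockout 1, knockout 2, wild type 2 or wild type 4, and 0 with the replicate number as a block. At an unadjusted p under 0.05 by limma, 6 of the 13 were higher, against 11.7% of all genes. Sftpd, the brightest of them, had levels of 15.93 to 16.14 in knockout and 16.04 to 16.13 in wild type, at the top of the scale, where quantile normalization leaves little room for a difference. The difference of Sftpd was 0.00 (adjusted p = 0.999), and 0.48 with median scaling. The highest signal was 71422 to 73595 on knockout arrays and 72195 to 73816 on wild-type arrays. Median scaling therefore raises probes at that height on the dimmer knockout arrays, and neither value is read as a difference. Stomach epithelium markers, of interest because Chia1 is abundant in mouse stomach, had 3 of 4 higher, with a summed level of 6116 to 7820 in knockout lungs against 1162 to 1726 in wild-type lungs. These were Pgc, the pepsinogen of gastric glands, at least 8.22-fold higher, Psca, at 2.22 (adjusted p = 0.00045), and Cblif, the gastric intrinsic factor, at 1.17 (adjusted p = 0.0212). The Pgc bound holds for the main setting, and the alternatives gave log2 differences of 1.38 to 4.08. Cblif was detected on 1 of 4 wild-type arrays, and its call was lost without any 1 knockout array or wild type 1, and in the authors' values (0.26, adjusted p = 0.0729); with no background correction it gave 0.38. The defining gastric markers Gkn1, Gkn2, Atp4a, Atp4b and Muc6 were detected on no array. The part of either cell type in the Chia1 difference was not tested.

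Eosinophil markers had 6 of 8 genes with a probe detected on no array, Siglecf, Epx and Prg3 among them, and 0 of 2 tested passed, by limma or at an unadjusted p under 0.05; the brightest, Prg2, gave 0.33 (adjusted p = 0.626). Mast cell and basophil markers had 1 of 4 lower, Cma1 (adjusted p = 0.0449, detected on 0 knockout arrays, passing under 3 of 14 alternatives). The other Cma1 probe, ILMN_1225727, gave -0.33 (adjusted p = 0.471), and its groups overlapped. The brightest of these markers, Hdc, gave 0.04 (adjusted p = 0.892). Neutrophil markers had 1 of 12 higher, Lcn2 (1.48, adjusted p = 0.00461), which epithelium also makes, and 0 lower. Cxcr2 joined Lcn2 without knockout 1, and 2 were lower with median scaling or without wild type 3. Only 4 of the 12 differences were above 0, and the median was -0.31. Unadjusted p by limma was under 0.05 for 2 higher genes (Lcn2 and Cxcr2) and 3 lower. The lower ones were Camp (at least 3.35-fold, its knockout values not above background), Ngp (-1.69) and Ltf (-1.53). Ngp and Ltf overlapped between groups. The summed level of the 12 was 94017 to 101742 in knockout lungs against 44030 to 155843 in wild-type lungs. The brightest, S100a8, gave -0.12 (adjusted p = 0.856). Club and airway secretory markers had 0 of 10 higher and 1 lower, Pigr. Their summed level was 219496 to 241257 in knockout lungs against 228423 to 261414 in wild-type lungs. The brightest, Cyp2f2, likewise at the top of the scale, gave -0.05 (adjusted p = 0.85), and 0.33 with median scaling. As for Sftpd, neither value is read as a difference. Endothelial markers had 8 of 14 lower and 0 higher, among them Calcrl, Tie1, Flt1 and Tek, with a summed level of 76152 to 86470 in knockout lungs against 120157 to 146196 in wild-type lungs; the brightest, Esam, gave -0.37 (adjusted p = 0.177). The part of these lists in the levels of Retnla, Gata3 and Flt1 was not tested.

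**Figure D5:**
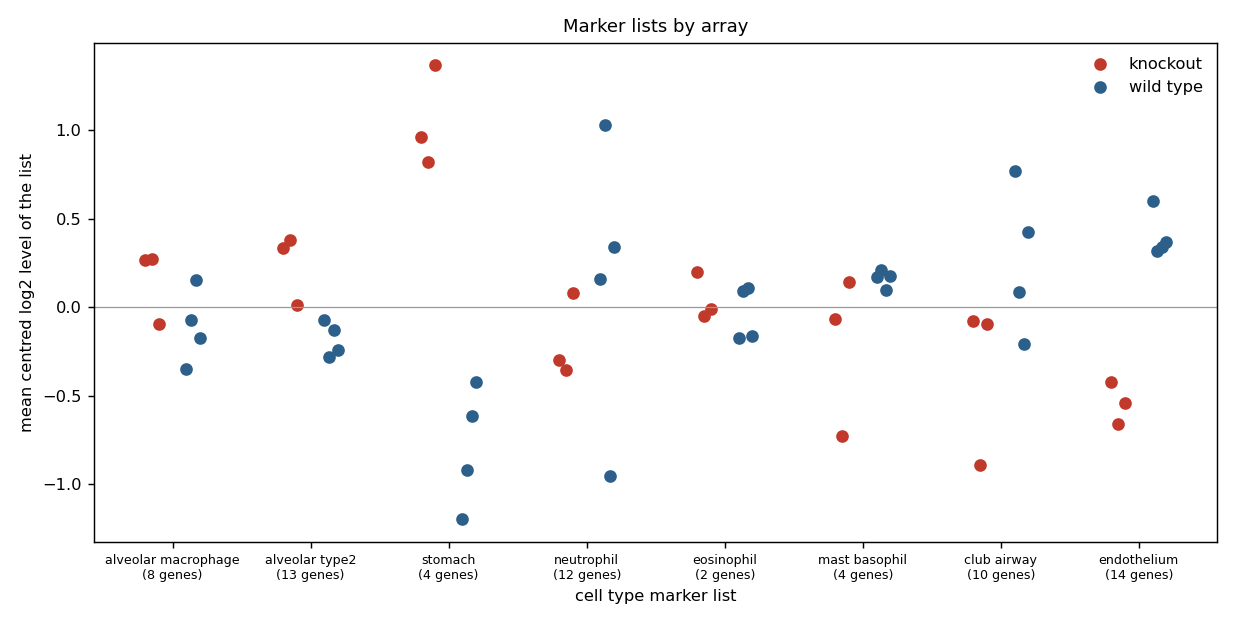
Mean centred log2 level (vertical axis) of each cell type marker list on the 3 knockout arrays (red, left) and the 4 wild-type arrays (blue, right), over the tested genes counted under each name. Knockout points lie above wild-type points for stomach and alveolar type 2 markers and below them for endothelium, and the groups overlap for the other lists.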

How the data were processed

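Whole-lung RNA of 3 knockout and 4 wild-type samples was read on bead arrays. Per the file headers, the deposited signals are average bead intensities, on a linear scale, for 25697 probes. Each deposited signal is paired with a detection p-value. The software behind it is not given in the sources used here. The second deposited table holds the authors' log2-like values, with lumi 1.14.0 and R 2.11.1 named per the submitters' processing notes; its exact transformation is unknown and it served as an alternative. Probes were named through the platform annotation: 23978 carried 1 gene symbol, 0 several and 1719 none, and 23962 were updated through the GRCm38 gene table.

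Intensities were processed with limma 3.58.1 in R 4.3.3. The neqc function corrected the background from the detection p-values, with an offset of 16, quantile-normalized the arrays and took log2. The filter asked for detection (p under 0.01) on 3 or more arrays and left 11902 probes of 8537 genes. Some genes, such as Azin2, Pgc, Cd163, Pigr and Cma1, met this filter only through the genotype in which they were higher. Their calls are described and not read as support. The knockout effect was fitted with lmFit and eBayes, and p-values were adjusted by Benjamini-Hochberg over those probes, with 0.05 as the threshold. Lists used the brightest kept probe of a gene. For a gene undetected throughout one genotype, each such array was raised to its lowest detected level and the fold is given as "at least". That bound holds for the main setting only. Summed levels add the normalized values of a list's tested genes on the linear scale, so the brightest genes weigh most.

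The members and all lists were chosen with earlier results of these data known. The rule for names took all member probes, the 3 nearest profiles of each tested member, type 2 genes past the threshold or on a list of key genes, and the largest changes and the brightest gene of each marker list. The scripts were tested on simulated data. Alternatives were no background correction, an offset of 50, median scaling, no filter, the authors' values, a variance trend with robust fitting, the replicate number as a block, and each array left out. The number of arrays limits the precision. Figures were drawn with Python 3.11.15 and matplotlib 3.10.9.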

Additional observations from a re-analysis of the deposited data

Results flagged for a closer look

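Dixon's test was run on 52 probes, those of tested members and of list genes taken by the rule for names above. Genes named only as nearest profiles were left out. Of the 52, 6 had 1 wild-type array standing apart from the other 3. Chance gives this in about 1 of 20 groups, and the 3 knockout arrays are too few for the test. Among the members this was Chil3 probe ILMN_2712986, where wild type 3 stood at 13.59 and the next wild-type array at 12.89. Without that array the Chil3 difference on this probe was 0.96, against 0.77 with it. In the type 2 pathway, Il13ra1 was high on wild type 1 (11.76, next 10.67) and Stat6 low on wild type 3 (7.33, next 7.70). Among the markers, Sftpd was high on wild type 3 (16.13, next 16.05), S100a8 low on wild type 3 (14.51, next 15.85) and Esam high on wild type 1 (15.09, next 14.77).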

How the results depend on the processing

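Over all probes, the 472 higher and 584 lower calls became 217 and 726 with median scaling, so the share of higher calls was 23.0% in place of 44.7%; the median difference over all tested probes was then -0.14. With median scaling the groups overlapped on Chil3 probe ILMN_2712986. Leaving out 1 array gave 140 to 466 higher and 193 to 533 lower probes, and 3 to 6 higher and 2 to 5 lower type 2 genes. Leaving out knockout 2 took the 1056 calls in all to 333, leaving out knockout 3 to 513, knockout 1 to 701 and wild type 2 to 688. Type 2 calls became 3 higher with median scaling, 3 lower with no background correction and 2 lower with the authors' values. The cause of these shifts was not tested. The labels number the replicates but do not say whether the same number pairs a knockout with a wild-type array. Deviations from the group means correlated at -0.02, -0.0044 and -0.14 between arrays of the same number. Knockout 1 correlated best with wild type 3 (0.12). So few arrays cannot decide whether the numbers pair them. With the replicate block, in which wild type 4 has no partner and drops out of the difference, 173 probes were higher and 228 lower, type 2 genes were 3 higher and 2 lower, Chia1 probe ILMN_2955940 gave 2.29, and Chil3 probe ILMN_3117876 gave 1.05 and did not pass. Probes near background, such as those of Chil4, Chit1 and Arg1, limit what can be said of those genes.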

Other observations

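The members differed in how evenly the arrays of a genotype agreed. Retnla varied by 1.09-fold over the 3 knockout arrays, and 89.9% of tested probes had a wider knockout range, while over the 4 wild-type arrays it varied by 3.60-fold, a width that 1.45% of tested probes exceeded. Chil1 varied by 4.76-fold over the wild-type arrays, which 0.723% of tested probes exceeded, and by 1.60-fold over the knockout arrays. Wild type 2, on which Retnla was highest, was also the only array that detected Chit1 or Arg1. Chil1 was highest on wild type 3 instead. Retnlg, the neighbour of Retnla, had its highest level on wild type 2 (14.34) and its lowest on wild type 3 (10.83), where Retnla was high.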
